A study of Mus musculus with 568 samples.

Results

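Epiblast-like cells (EpiLCs) were compared with the mouse embryonic stem cells (ESCs) from which they were induced, across the 16281 genes of the bulk table whose mean normalized count was above 10 over all 16 bulk libraries, out of 16335 genes in the table. Each group had 4 libraries of stranded total RNA. Both came from XRep, a female EL16.7 TST-derived hybrid line of 129S1/SvImJ (mus) and CAST/EiJ (cas) chromosomes, so every library shared a truncated Tsix on X mus, a GFP reporter in Hprt on X mus, a tdTomato reporter in Hprt on X cas, rtTA at Rosa26 and piggyBac transgenes of Prdm14, Blimp1 and Tfap2c that respond to doxycycline. Doxycycline was given only at the following stage, the primordial germ cell-like cell (PGCLC) aggregates, whose 8 sorted libraries (4 XGFP+, 4 XGFP-, day 5) entered the fit here only to estimate the spread. ESCs were grown on gelatin in serum with LIF and spent 24 h in 2i/LIF on laminin before induction, and the sources do not state from which of these media the ESC RNA was taken. EpiLCs were made with bFGF and activin A on fibronectin for 48 h and, after a split, for another 48 h. On the origin of the 4 libraries the study's text speaks of 2 clones, each with 2 technical repeats, and its legends of 4 biological replicates. The labels name no clone, so the 4 libraries were treated as independent, and p-values measure only the spread between these libraries, which may be technical.

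ESCs in serum or 2i with LIF are a model of the naive epiblast of the blastocyst, held by a network of transcription factors that LIF, WNT signaling and low ERK activity keep on. When LIF is withdrawn and FGF and activin are supplied, the network is dismantled, the core factors OCT4 and SOX2 are redirected by OTX2 and POU3F1, and the cells pass through a formative state that resembles the epiblast just after implantation. This is the state from which germ cell fate can be induced, and it is the time when the embryo methylates its genome anew.

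Normalized counts are read counts per gene divided by a size factor for the library. Fold changes are log2(normalized count + 1) differences, EpiLC minus ESC, so those of low genes are understated, and they are given ± SE. Levels are means ± SD over 4 libraries. A gene was called higher or lower below an adjusted p of 0.001 (limma, Benjamini-Hochberg over 16281 genes). Recovered reads ran from 34584098 to 46533858 per library, mitochondrial genes took 10.7 to 13.3% of them in ESCs and 10.72 to 12.02% in EpiLCs, and Spearman correlations between libraries of a group were 0.990 to 0.996. Of the genes named below as changed, 9 lost the call when 1 library was left out, all at adjusted p-values of 0.0033 or less (Brdt, Ccnd1, Chac1, Dnmt1, Fos, Grb10, Itga5, Rif1 and Slc16a3, limma). Nearest to the limit on the mean count lay Tex16 and Gm12944 inside it (10.0001 and 10.0008) and Gm15785 and Gm13668 outside it (9.9928 and 9.988).

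The labels were checked against defining markers before anything else. Fgf5, an FGF ligand of the post-implantation epiblast (chr5:98254184-98277030, mm10), had normalized counts of 6.74, 13.8, 11.6 and 6.79 in ESC replicates 1 to 4 and of 3498, 3081, 3883 and 3741 in the EpiLC replicates. Every EpiLC library was thus far above every ESC library, and the fitted difference was 8.43 ± 0.20 (limma adjusted p = 2.03e-16). Dnmt3b, a de novo DNA methyltransferase (chr2:153649450-153687730), went from 2363, 2051, 2554 and 3274 to 49201, 43335, 49490 and 45921, a rise of 4.22 ± 0.13 (limma adjusted p = 8.82e-15). Otx2, the homeobox factor of the formative state (chr14:48657677-48673819), was present in ESCs at 558, 804, 647 and 779 and reached 3844, 3214, 3645 and 3260 in EpiLCs, a rise of 2.33 ± 0.17 (limma adjusted p = 7.68e-10). The naive markers moved the other way, and in bulk RNA fewer cells of a type and less RNA per cell cannot be told apart. Esrrb, an orphan nuclear receptor of the naive network (chr12:86361117-86521628), was at 24493, 24828, 25214 and 26038 in ESCs and at 1902, 1453, 995 and 595 in EpiLCs and fell by 4.47 ± 0.22 (limma adjusted p = 2.07e-12). Zfp42, which encodes REX1 (chr8:43295063-43306980), was at 29775, 27042, 28586 and 31086 and 3173, 2618, 1396 and 1105 and fell by 3.94 ± 0.23 (limma adjusted p = 3.37e-11). For both genes the 4 EpiLC libraries spread more than the 4 ESC libraries, with replicate 1 highest and replicate 4 lowest, a pattern taken up at the end.

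Across the genome 4059 genes (24.9% of those tested) were higher and 3729 (22.9%) lower in EpiLCs, 47.8% in all, and for 60.7% of genes the 4 ESC and the 4 EpiLC libraries did not overlap. Numbers of higher and lower genes were close, but the large changes were mostly rises. Changes above 1 on the log2 scale numbered 2381 up and 1820 down, above 3 they numbered 780 and 375, and above 5 they numbered 228 and 77. The median over all genes was 0.009, and the median SD of a gene among libraries on the log2 scale was 0.164 in ESCs and 0.147 in EpiLCs. No read was seen in any ESC library for 29 of the higher genes and in any EpiLC library for 10 of the lower genes. Among protein-coding genes 3831 of 13772 were higher and 3491 lower, while processed pseudogenes, which share reads with their parent genes, had 34 higher and 60 lower of 1075.

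**Figure D1:**
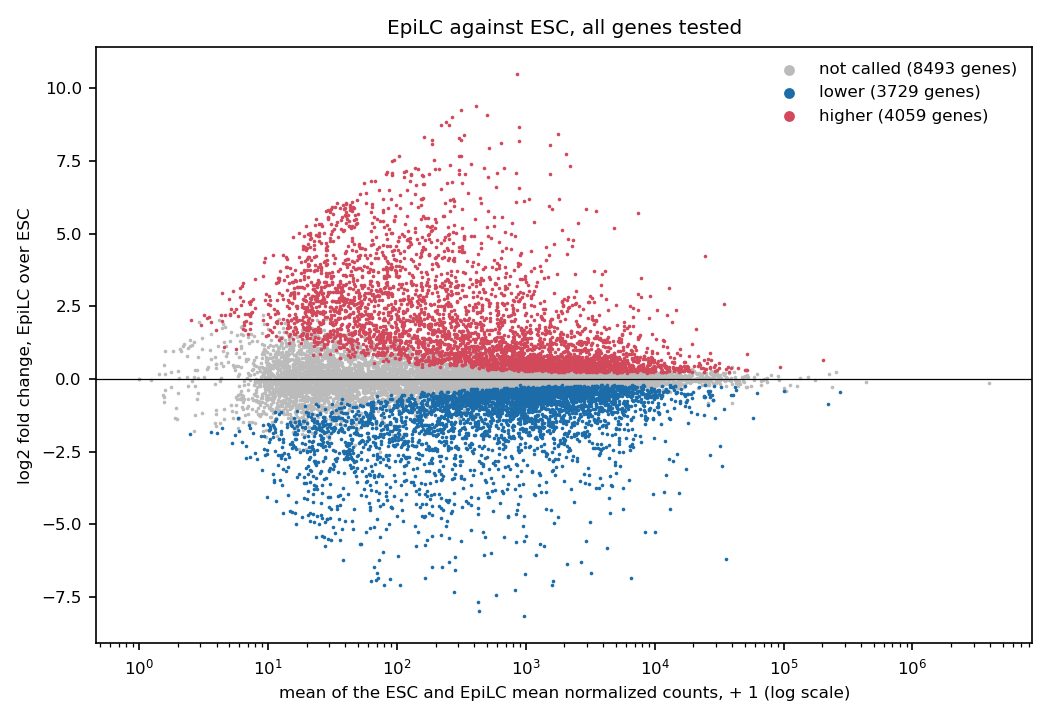
Each point is 1 of the 16281 genes tested, with the mean of the ESC and EpiLC normalized counts plus 1 on a log axis and the log2 fold change (EpiLC over ESC) on the vertical axis. The 4059 higher genes reach further from 0 than the 3729 lower genes, and the 8493 genes not called lie around 0 at every level.

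Autosomes held 3881 of the higher and 3475 of the lower genes among 15316 tested (25.3% and 22.7%), with a median change of 0.015. By chromosome the share of higher genes ran from 21.2% on chromosome 11 to 33.8% on chromosome 12 (203 of 600), and the share of lower genes from 18.5% on chromosome 18 to 25.6% on chromosome 9. Of the higher genes of chromosome 12, 59 lie in the imprinted Dlk1 to Dio3 interval, which is described below.

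The 10 largest rises, among called and named genes with a mean of at least 100 over the 8 libraries, were of genes nearly silent in ESCs. Car4, a membrane-bound carbonic anhydrase, had normalized counts of 0, 0.99, 0 and 0 in the ESC libraries, which is 1 read in all, and of 1652, 1430, 1967 and 1830 in EpiLCs, a ratio of 6454-fold (95% counting interval 1158 to 254944). Has2, a hyaluronan synthase, was likewise seen with 1 read over the ESC libraries and stood at a mean of 828 ± 130.1 in EpiLCs, a ratio of 3079-fold (95% counting interval 552 to 121657). The intervals cover counting error only. Gbp2, an interferon-inducible guanylate-binding protein, Cysltr1, a leukotriene receptor on the X chromosome, and Rxrg, a retinoid X receptor, had no read in any ESC library and EpiLC means of 627 ± 195.5, 534 ± 135.5 and 484 ± 176.00. Against the limit of 3 reads over the group they were at least 779-fold, 664-fold and 601-fold higher. Jakmip2 had 1 ESC read and a ratio of 1907-fold (95% counting interval 342 to 75348). Tmem54, Fndc3c1 and Fam131b rose by 9.07 ± 0.60, 8.67 ± 0.25 and 8.40 ± 0.50, and Fgf5 completes the list. In Tmem54 the EpiLC values of 759, 1199, 715 and 1356 were higher in replicates 2 and 4 than in 1 and 3, and its few ESC reads were in replicates 2 and 4 as well.

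The 10 largest falls under the same rule were of genes expressed in ESCs. Mal, a proteolipid of membrane rafts, was at 2376, 1615, 2223 and 1545 in ESCs and at 0, 10.9, 9.94 and 13.8 in EpiLCs and fell by 8.17 ± 0.57 (limma adjusted p = 3.92e-10). Crxos, a homeobox gene of early embryos, went from a mean of 842 ± 204 to 3.36 ± 1.91, and Pramel7, a PRAME family gene of the inner cell mass, from 208 ± 50.6 to 0.64 ± 0.78. Pramel7 had 3 EpiLC reads, so its ratio of ESC to EpiLC was 294-fold (95% counting interval 100.4 to 1431). Reads of Pramel7 may be shared with paralogs, and its value is uncertain for that reason. The others were Pga5, a pepsinogen (log2 change of -7.99 ± 0.28), Trpm1, a cation channel (-7.43 ± 0.29), Ly6a, the Sca-1 antigen (-7.33 ± 0.47), Spic, an ETS factor (-7.26 ± 0.29), Aqp3, a water and glycerol channel (-7.11 ± 0.23), Xaf1, an XIAP-associated factor (-6.94 ± 0.26), and Jam2, a junctional adhesion molecule (-6.87 ± 0.29). Spic and Jam2 are also members of the naive list that follows.

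The naive list and those below were chosen with earlier results of these data known, so their counts are a description. Of 20 genes listed for naive pluripotency, 19 fell and none rose, with a median change of -3.92 beside 0.009 over all genes. Their summed normalized counts were 255536 to 281839 in the ESC libraries and 14810 to 24603 in the EpiLC libraries. The transcription factors of the network differed in how far they fell. Tfcp2l1, the CP2-like factor downstream of LIF, was the most abundant of them in ESCs, at 67684, 65675, 76709 and 73467, and stood at 1333, 1161, 778 and 717 in EpiLCs (fell by 6.20 ± 0.15, limma adjusted p = 2.15e-16). Falls on the log2 scale were also seen in Tbx3, a T-box factor of the network (-6.39 ± 0.23), Klf4, a Kruppel-like factor (-5.58 ± 0.11), Nr5a2, an orphan nuclear receptor (-4.25 ± 0.25), and Tcl1, a coactivator of AKT (-6.30 ± 0.38). Klf4 was at 130.7, 103.8, 114.3 and 123.4 in EpiLCs, a narrow range beside that of Tcl1, given at the end. The decrease of Nanog was intermediate, from 31578, 31306, 30164 and 33204 to 3968, 4055, 2883 and 3854, a change of -3.11 ± 0.09 (limma adjusted p = 1.75e-15).

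The smallest falls of the list were those of Dppa3, the maternal factor STELLA (by 1.77 ± 0.14), Klf5 (by 2.05 ± 0.11) and Pecam1, a surface adhesion molecule (by 2.23 ± 0.11), while Klf2 fell by 2.72 ± 0.16. Prdm14, a repressor of FGF signaling and of de novo methylation, fell from 3182, 2973, 3542 and 3775 to 334, 99.9, 242 and 29.6, a change of -4.74 ± 0.45 (limma adjusted p = 3.02e-08). Its EpiLC values were far apart, highest in replicate 1 and lowest in replicate 4, and all were below every ESC library. Prdm14 is also carried as a transgene, and its counts may hold reads from either source. Zfp57, the KRAB zinc finger that guards imprints, fell from a mean of 21963 ± 985 to 1513 ± 393, and Tdh, threonine dehydrogenase, from 25342 ± 1947 to 4303 ± 949. Gbx2 was the only member not called: it was low throughout, at 67.4, 87.9, 80.97 and 90.5 in ESCs and 85.6, 57.4, 58.6 and 40.5 in EpiLCs, and the groups overlapped.

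**Figure D2:**
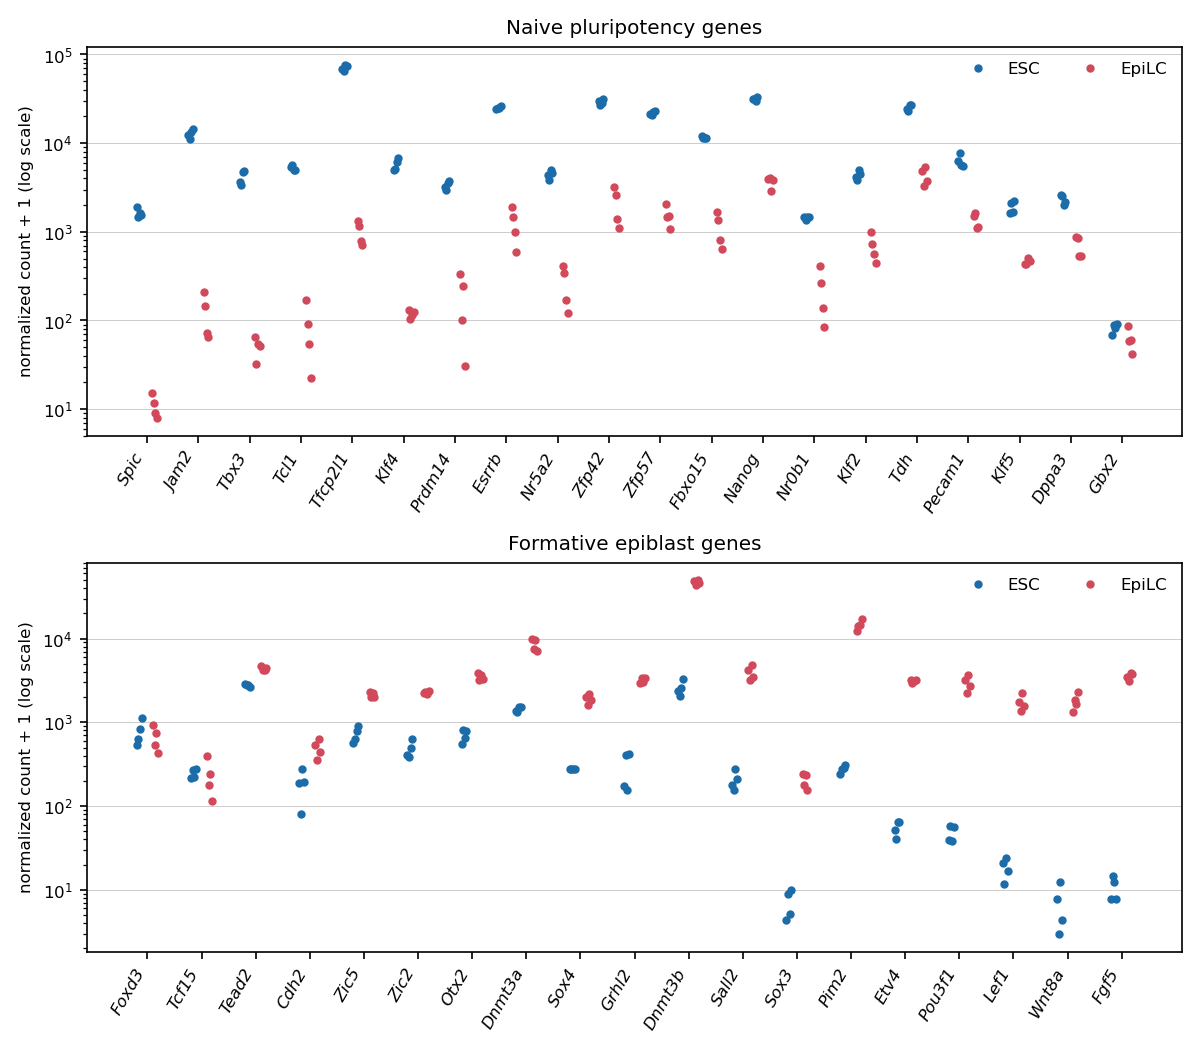
Normalized counts plus 1 (log axis) of the 20 naive pluripotency genes (top) and 19 of the formative epiblast genes (bottom) in each of the 4 ESC and 4 EpiLC libraries, with genes ordered by log2 fold change. ESC and EpiLC points separate for 19 naive genes, all but Gbx2, and for 17 of the formative genes shown, all but Foxd3 and Tcf15.

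The general pluripotency genes behaved differently. Of 18 listed, 7 rose, 3 fell and 8 were not called (median 0.41). The shares over all genes were 24.9%, 22.9% and 52.2%. Pou5f1, which encodes OCT4, was at 26339, 27766, 24745 and 27995 in ESCs and at 24878, 25652, 25864 and 27963 in EpiLCs. These values overlapped, and the difference of -0.03 ± 0.06 was small (limma adjusted p = 0.645), and with quantile normalization it was 0.00. Sox2, its partner, went from 9659, 10332, 11442 and 12312 to 3594, 2299, 3061 and 1827, a fall of 2.06 ± 0.14 (limma adjusted p = 2.94e-10) without overlap. Dppa5a fell by 2.30 ± 0.19 and Rif1 by 0.28 ± 0.06. The members that rose were Utf1, a chromatin factor of pluripotent cells (256 to 2065, by 3.01 ± 0.11), Lin28a, the inhibitor of let-7 maturation (4475 to 20310, by 2.19 ± 0.11), Dnmt3l, the cofactor of de novo methylation (by 1.99 ± 0.19), Dppa4 (1.01 ± 0.11), Mycn (0.90 ± 0.11), L1td1 (0.64 ± 0.08) and Zfp281 (0.48 ± 0.09).

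Of 20 genes listed for the formative epiblast, likewise chosen with earlier results known, 18 rose and none fell, with a median of 3.20. Summed normalized counts were 10808 to 14060 in ESCs and 100093 to 115561 in EpiLCs. Beside the markers, the transcription factors Pou3f1, the POU partner of OTX2, rose from 38.2, 57.3, 36.8 and 55.4 to 3239, 2263, 3645 and 2688, by 5.95 ± 0.20 (limma adjusted p = 1.28e-14), Sall2 by 4.29 ± 0.18, Sox3 by 4.89 ± 0.45, Grhl2, a regulator of epithelial enhancers, by 3.62 ± 0.26, and Zic2 and Zic5 by 2.28 ± 0.20 and 1.58 ± 0.22. Pim2, a serine/threonine kinase on the X chromosome, rose from 241, 273, 281 and 305 to 12432, 13958, 14615 and 17328, by 5.72 ± 0.11. The members not called were Foxd3, a forkhead repressor, at 542, 628, 824 and 1119 in ESCs and 928, 542, 744 and 428 in EpiLCs, and Tcf15, at 217, 271, 223 and 277 and 401, 176.00, 239 and 112.6. In both genes the groups overlapped, and the 4 EpiLC libraries lay wide apart.

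The media of ESCs and EpiLCs differed, so effects of their components, such as the inhibitors in 2i, cannot be told apart from the change of state. Signaling genes were read by pathway, starting with FGF and ERK, a signal linked to the exit. Of 25 members tested 19 rose and 3 fell (median 1.42), beside 24.9% higher and 22.9% lower over all genes. Among the ligands, Fgf4, the autocrine FGF of naive cells, fell from 10905, 10063, 11467 and 11760 to 3861, 2939, 2949 and 2135, a change of -1.92 ± 0.25 (limma adjusted p = 1.59e-06), while Fgf5, Fgf8 and Fgf15 rose, Fgf8 from 1.12, 1.98, 1.05 and 5.66 to 402, 530.0, 389.5 and 736. The receptors Fgfr1, Fgfr2 and Fgfr3 rose by 0.67 ± 0.10, 1.49 ± 0.27 and 1.68 ± 0.25. The feedback inhibitors, which ERK activity induces, rose as well. Dusp6, the phosphatase that acts on ERK, went from a mean of 122.1 ± 15.1 to 5424, 5466, 7634 and 9023, by 5.78 ± 0.14 (limma adjusted p = 2.07e-16), Dusp4 rose by 5.85 ± 0.17, Spry4 by 3.21 ± 0.26, Spry1 by 2.11 ± 0.11 and Spred1 by 0.87 ± 0.16. Of the ETS effectors, Etv4 rose from 54.4 to 3117 and Etv1 from 147.9 to 1012, whereas Etv5, already at 12938 ± 874 in ESCs, was at 11678 ± 1083 and was not called. The immediate early genes Egr1 and Fos, transcribed within minutes of ERK activation, fell by 1.18 ± 0.20 and 0.91 ± 0.18.

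LIF and STAT3 genes moved mostly down: of 15 tested, 9 fell and 3 rose (median -0.72). Over all genes 22.9% fell and 24.9% rose. The receptor subunits Lifr and Il6st fell by 2.38 ± 0.11 and 2.13 ± 0.06, Stat3, the effector, by 2.06 ± 0.11 and Socs3, its direct target and feedback inhibitor, from 2461, 3083, 2797 and 2749 to 142.6, 116.7, 122.2 and 115.5, a change of -4.47 ± 0.12 (limma adjusted p = 5.72e-16). Of the kinases that bind the receptors, Jak1 and Tyk2 fell by 0.72 ± 0.08 and 1.16 ± 0.07. Lif itself, Ptpn11 and Socs1 were the members that rose, Socs1 from a mean of 33.4 to 98.1.

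In the WNT list 14 of 26 tested genes rose and 4 fell (median 0.63), beside 24.9% higher and 22.9% lower over all genes. The ligands Wnt8a and Wnt3 rose from 6.74, 1.98, 11.6 and 3.39 to 1326, 1825, 1634 and 2308 and from 52.8, 28.7, 50.5 and 26.02 to 944, 1126, 1399 and 1852. The receptors Fzd7 and Fzd2 rose by 3.72 ± 0.07 and 3.78 ± 0.20, and Fzd5 fell by 1.97 ± 0.08. Among the nuclear factors, Lef1 rose from a mean of 17.5 to 1740, by 6.58 ± 0.17 (limma adjusted p = 7.21e-16), and Tcf7 by 0.65 ± 0.08. Axin2, a general target of the pathway, was at 1289, 927, 1396 and 938 in ESCs and 1198, 1186, 1409 and 1602 in EpiLCs and was not called, Nkd1 rose by 3.25 ± 0.25, and Notum, a secreted WNT inhibitor, Cdx1 and Sfrp1 fell by 3.84 ± 0.38, 4.71 ± 0.23 and 3.70 ± 0.18.

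The Nodal and activin list, the pathway supplied to EpiLCs as activin A, had 9 of 20 members higher and 7 lower (median 0.10). Over all genes 24.9% were higher and 22.9% lower. Nodal rose from 2298, 2294, 2540 and 2714 to 4684, 5516, 5043 and 6473, by 1.13 ± 0.08 (limma adjusted p = 5.61e-10). The antagonists split: Lefty1 rose by 2.37 ± 0.21, to 9545, 9773, 4893 and 5235, Lefty2 fell by 1.25 ± 0.23, to 4033, 4515, 2208 and 2745, and Fst, follistatin, which binds activin, rose from a mean of 47.1 to 3562. Skil, a feedback corepressor, rose by 2.37 ± 0.13, while Smad7, an inhibitory SMAD, fell by 1.24 ± 0.09 and Inhbb, an activin subunit, fell by 5.07 ± 0.28. In the BMP list 8 of 18 rose and 4 fell (median 0.42), against 24.9% and 22.9% of all genes. Bmp4 fell from a mean of 658 to 73.5, and the ID genes, which encode inhibitors of bHLH factors and are induced by BMP, went apart: Id2 rose from 17.96, 20.8, 14.7 and 23.8 to 395, 457, 524 and 723, by 4.68 ± 0.20 (limma adjusted p = 4.07e-13), whereas Id1, Id3 and Id4 fell by 1.69 ± 0.17, 2.25 ± 0.12 and 3.62 ± 0.18.

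**Figure D3:**
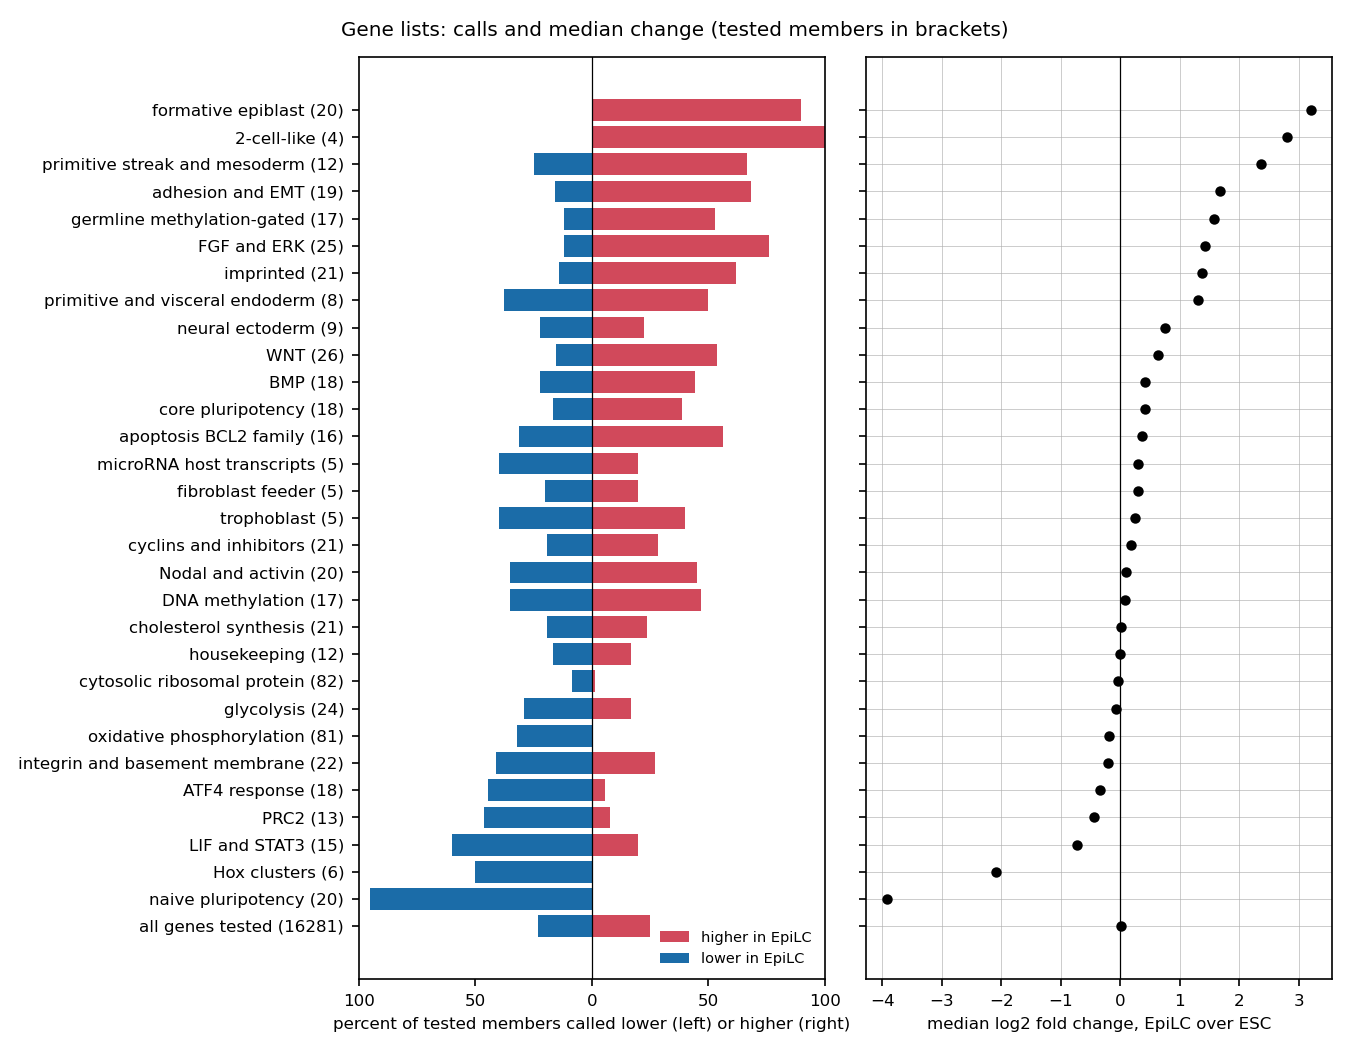
For each gene list, with the number of members tested in brackets, the left panel gives the percent of them called higher (right of 0) or lower (left of 0) in EpiLCs and the right panel their median log2 fold change. Lists are ordered by that median, from 3.20 for the formative to -3.92 for the naive list, and all genes tested, at the bottom, have 24.9% higher and 22.9% lower.

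In the list of DNA methylation enzymes and readers, 8 of 17 genes rose and 6 fell (median 0.08). The shares over all genes were 24.9% higher and 22.9% lower. The de novo methyltransferases rose together, Dnmt3a from 1383, 1332, 1528 and 1508 to 9793, 7473, 9701 and 7098 (by 2.55 ± 0.10, limma adjusted p = 9.81e-14), Dnmt3b by 4.22 ± 0.13 and Dnmt3l by 1.99 ± 0.19. The maintenance pair fell, Dnmt1 by 0.25 ± 0.05 and its recruiting factor Uhrf1 by 0.80 ± 0.09, without overlap of the groups for either gene. Of the TET dioxygenases, which oxidize methylcytosine, Tet2 fell from 20696, 18105, 19796 and 20169 to 720.0, 677, 387 and 351, a change of -5.28 ± 0.22 (limma adjusted p = 2.26e-13), Tet1 fell by 1.15 ± 0.10 and stayed at a mean of 11980 ± 1504, and Tet3 rose by 0.91 ± 0.13. Per kilobase of exon, the EpiLC levels of Dnmt3b, Tet1 and Tet2 were 9202, 775 and 31.6. Of 13 subunits and cofactors of Polycomb repressive complex 2, 6 were lower, 1 was higher and 6 were not called (median -0.44). Suz12 fell by 1.08 ± 0.09, Eed by 0.45 ± 0.05, Mtf2 by 1.09 ± 0.10 and Epop by 2.04 ± 0.20, the cofactor Jarid2 rose by 0.47 ± 0.07, and the catalytic subunit Ezh2 was at means of 3105 ± 108.4 and 2627 ± 165.8 and was not called.

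Germline genes whose promoters are known to be silenced by DNA methylation were tested as a list of 18, of which 17 passed the limit on the mean. In EpiLCs 9 rose, 2 fell and 6 were not called (median 1.58), beside 24.9% higher and 22.9% lower over all genes. Summed normalized counts of the 17 did not rise. They were 7277 to 9415 in the ESC libraries and 5403 to 8840 in the EpiLC libraries, which overlapped. Those that rose were Tdrd1, Mael and Mov10l1 of the piRNA pathway, Ddx4, the germ cell helicase VASA, Sycp1 and Sycp3 of the synaptonemal complex, Slc25a31, a testis ADP/ATP carrier, Taf7l, a TFIID subunit, and Brdt, a bromodomain protein. Tdrd1 went from 5.61, 9.88, 7.36 and 12.4 to 412, 387, 418 and 365, by 5.38 ± 0.22 (limma adjusted p = 1.85e-13), Mael from 46.02, 62.3, 35.8 and 52.04 to 584, 382, 584 and 325, and Ddx4 from 143.7, 151.2, 206 and 216 to 494, 614, 509.7 and 511. Levels of the risen genes remained modest, with EpiLC means of 21.7 to 887. Tex19.1 and Stk31 fell by 1.22 ± 0.23 and 0.85 ± 0.17, and Dazl, an RNA-binding protein of germ cells, was lower without passing the test, at 491, 696, 498 and 630.1 in ESCs and 281, 190.9, 309 and 190.6 in EpiLCs (limma adjusted p = 0.0119). With the spread taken from the 8 ESC and EpiLC libraries alone Dazl did pass (limma adjusted p = 6.3e-05).

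A RefSeq promoter (250 bases before to 50 after the start, GRCm38.p6, the assembly of mm10) could be matched by name and chromosome to 11120 genes tested and to 16 of these germline genes. CpG dinucleotides are the sites of methylation, and the germline promoters held a median of 21 in 300 bases, the same as over all matched promoters. The letters CACGTG, which read the same on both strands, occur in 12 of the 16 germline promoters and in 10.2% of all matched promoters. All 9 germline genes that rose hold them, and 3 of the 7 others do. The motif was chosen after these promoters were looked at, so the counts are a description. The promoters of 3 genes that rose and of Dazl, which was not called and lacks the letters, are shown so that the shared letters can be seen in place. They run 5′ to 3′ on the strand of the gene, with CACGTG in capitals (Tdrd1 chr19:56825959-56826258 and Sycp3 chr10:88459337-88459636 on the plus strand, Mael chr1:166238695-166238994 and Dazl chr17:50293571-50293870 on the minus strand).
Tdrd1: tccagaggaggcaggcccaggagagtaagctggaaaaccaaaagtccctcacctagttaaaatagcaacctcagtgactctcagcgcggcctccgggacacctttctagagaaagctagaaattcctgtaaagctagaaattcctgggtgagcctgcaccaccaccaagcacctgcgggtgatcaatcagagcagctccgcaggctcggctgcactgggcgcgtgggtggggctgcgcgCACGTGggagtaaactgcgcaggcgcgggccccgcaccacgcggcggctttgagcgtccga
Mael: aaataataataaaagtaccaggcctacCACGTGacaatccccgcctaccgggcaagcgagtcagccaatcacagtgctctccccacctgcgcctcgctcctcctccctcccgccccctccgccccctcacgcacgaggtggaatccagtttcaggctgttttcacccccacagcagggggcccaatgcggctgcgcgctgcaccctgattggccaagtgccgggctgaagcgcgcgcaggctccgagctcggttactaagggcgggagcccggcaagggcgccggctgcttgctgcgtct
Sycp3: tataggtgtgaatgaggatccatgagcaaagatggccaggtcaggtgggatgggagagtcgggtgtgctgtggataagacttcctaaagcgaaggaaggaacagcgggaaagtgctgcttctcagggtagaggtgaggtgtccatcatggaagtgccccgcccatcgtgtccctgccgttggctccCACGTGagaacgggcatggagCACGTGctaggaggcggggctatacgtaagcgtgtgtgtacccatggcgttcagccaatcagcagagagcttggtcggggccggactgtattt
Dazl: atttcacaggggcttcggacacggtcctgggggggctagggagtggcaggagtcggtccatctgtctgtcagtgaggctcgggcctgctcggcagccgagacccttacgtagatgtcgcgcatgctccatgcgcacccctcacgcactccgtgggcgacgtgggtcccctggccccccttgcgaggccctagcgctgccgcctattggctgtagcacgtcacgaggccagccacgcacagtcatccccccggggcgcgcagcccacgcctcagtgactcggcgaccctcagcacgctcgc
CpG counts were also read over the changed genes at large. The 249 matched promoters of genes that fell by more than 3 on the log2 scale held a median of 9 CpGs, the 540 of genes that rose by more than 3 held 15, and the 5312 of genes not called held 21. At least 10 CpGs were present in 47.8%, 69.1% and 82.7% of these promoters.

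In the list of adhesion and epithelial-mesenchymal transition genes 13 of 19 tested genes rose and 3 fell (median 1.68). The shares over all genes were 24.9% and 22.9%. The tight junction genes Cldn6, Cldn7 and Ocln rose by 5.36 ± 0.19, 3.12 ± 0.20 and 1.68 ± 0.20, the epithelial adhesion molecule Epcam from 1017, 1466, 820.2 and 1162 to 7953, 7000, 6685 and 7523, the epithelial splicing factor Esrp1 by 4.79 ± 0.29, and the keratins Krt18 and Krt19 by 3.00 ± 0.23 and 4.10 ± 0.49. Cdh1, E-cadherin, was high in both groups and rose by 0.44 ± 0.08, and Cdh2, N-cadherin, rose by 1.51 ± 0.29. The ZEB repressors of epithelial genes moved in opposite directions. Zeb1 was at 818, 855, 786 and 826 in ESCs and 47.5, 19.8, 48.7 and 22.7 in EpiLCs (fell by 4.64 ± 0.22, limma adjusted p = 1.33e-12), and Zeb2 was at 4.49, 2.96, 0 and 1.13 and 259, 198.8, 281 and 209 (rose by 6.50 ± 0.44, limma adjusted p = 2.01e-10). Fn1, fibronectin, and Ncam1 fell by 2.75 ± 0.14 and 3.89 ± 0.17. EpiLCs were plated on fibronectin.

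Of 22 basement membrane and integrin genes 6 rose and 9 fell (median -0.21), where 24.9% of all genes rose and 22.9% fell. Within the laminins, trimers of an alpha, a beta and a gamma chain, Lama1 fell from 7926, 8449, 9011 and 8026 to 161.6, 130.5, 179.8 and 119.5, a change of -5.83 ± 0.11 (limma adjusted p = 2.31e-17), Lamc1 fell by 1.14 ± 0.06, Lamb1 rose from a mean of 738 to 6927 and Lama5 rose by 0.75 ± 0.12. Nidogen-1, Nid1, fell by 4.61 ± 0.13 and Nid2 by 0.54 ± 0.06. Among the integrins, Itgb3 fell by 4.91 ± 0.19 and Itga6, a laminin receptor subunit, by 1.12 ± 0.10, while Itga8, Itga3 and Itga5 rose by 4.14 ± 0.32, 1.42 ± 0.14 and 0.62 ± 0.13.

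Of 81 nuclear-encoded subunits of oxidative phosphorylation tested, 26 fell, none rose and 55 were not called, with a median of -0.19. Over all genes 22.9% fell and 24.9% rose. The libraries of a group were ordered in this list: replicate 3 was the lowest for 56.8% of the 81 genes in ESCs and 51.9% in EpiLCs (27.7% and 22.1% of all genes), and replicate 1 the highest for 58% and 55.6% (19.6% and 26.4% of all genes). The largest falls were those of Cox7a1, from 282, 261, 243 and 210.4 to 37.2, 45.5, 40.7 and 42.5 (-2.55 ± 0.13), Ndufb4 (-1.44 ± 0.09) and Cox7b (-0.99 ± 0.09). In glycolysis 4 of 24 rose, 7 fell and 13 were not called (median -0.07), again beside 24.9% higher and 22.9% lower over all genes. Summed normalized counts of the 24 were lower in EpiLCs without overlap, at 431527 to 491097 in ESCs and 312914 to 404565 in EpiLCs. The glucose transporter Slc2a3 fell from 62794, 67221, 57305 and 51123 to 9517, 8844, 5435 and 6613, a change of -2.999 ± 0.15 (limma adjusted p = 2.21e-12), the platelet phosphofructokinase Pfkp by 3.30 ± 0.18, and the hexokinases Hk1 and Hk2 by 2.68 ± 0.09 and 1.31 ± 0.16. The lactate exporter Slc16a3 rose from 2172, 2481, 1817 and 1369 to 11735, 10535, 9885 and 11803. EpiLC replicate 3 was the lowest EpiLC library for 79.2% of the 24 glycolytic genes, and for 22.1% of all genes.

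Genes of the ATF4 amino acid response had 8 of 18 members lower and 1 higher (median -0.34), beside 22.9% and 24.9% of all genes. Asns, asparagine synthetase, fell from 50224, 52223, 41822 and 41772 to 7632, 7816, 7107 and 7263, a change of -2.64 ± 0.08 (limma adjusted p = 3.69e-15), and Trib3, Chac1 and Psph fell by 1.68 ± 0.26, 1.34 ± 0.27 and 1.29 ± 0.13. The ESC libraries differed in this list: replicate 2 was the highest ESC library for 17 of the 18 genes, and for 28.1% of all genes, and Chac1 was at 1552, 1988, 752 and 1012, with replicates 1 and 2 above 3 and 4. Cholesterol synthesis had 5 of 21 genes higher and 4 lower (median 0.01), and cytosolic ribosomal proteins 1 of 82 higher and 7 lower (median -0.03), so neither list stood apart from all genes by its median. Fewer of the 82 were called in either direction than the 24.9% higher and 22.9% lower of all genes. Replicate 3 was the lowest library for 92.7% of the 82 in ESCs and 76.8% in EpiLCs (27.7% and 22.1% of all genes). Replicate 1 was the highest for 50% and 76.8% (19.6% and 26.4% of all genes). Of 12 housekeeping genes 2 were higher, 2 lower and 8 not called, with a median of 0.00.

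Of 21 cell cycle genes 6 rose, 4 fell and 11 were not called (median 0.18), beside 24.9% higher and 22.9% lower over all genes. Ccnd2 rose from 4.49, 1.98, 7.36 and 2.26 to 219, 265, 298 and 419, by 5.99 ± 0.36 (limma adjusted p = 4.49e-11), Ccnd1 rose by 1.27 ± 0.26, and Ccnd3 fell from 4225, 4437, 4214 and 4643 to 1606, 1547, 1411 and 1517, by 1.53 ± 0.05. Of the kinase partners, Cdk6 was found with a rise of 1.77 ± 0.12 and Cdk2 with a change of -1.06 ± 0.06. The BCL2 family had 9 of 16 members higher and 5 lower (median 0.37). The BH3-only genes, whose products start apoptosis, went both ways: Pmaip1 (NOXA), Bcl2l11 (BIM), Bbc3 (PUMA) and Bmf rose by 2.82 ± 0.13, 2.02 ± 0.09, 1.57 ± 0.11 and 1.19 ± 0.14, whereas Hrk and Bid fell by 2.21 ± 0.27 and 0.75 ± 0.06. The inhibitor Bcl2 rose from a mean of 5.58 to 87.3 and Mcl1, the most abundant of the family here, by 0.38 ± 0.05.

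Imprinted genes are expressed from only the maternal or the paternal copy. Of 21 tested, 13 rose and 3 fell (median 1.37), beside 24.9% higher and 22.9% lower over all genes. The paternally expressed Peg3 rose from 1401, 1618, 1929 and 2025 to 13037, 12429, 14263 and 13060, by 2.93 ± 0.09 (limma adjusted p = 7.36e-15), Peg10, Magel2 and Nnat by 3.12 ± 0.29, 6.70 ± 0.37 and 6.14 ± 0.40. The maternally expressed H19, Grb10 and Cdkn1c rose by 3.28 ± 0.20, 2.06 ± 0.44 and 2.10 ± 0.30. Igf2, which lies beside H19, was at 130.2, 73.1, 163.00 and 144.8 in ESCs and 82.4, 99.9, 104.3 and 94.8 in EpiLCs and was not called. Igf2r fell by 1.12 ± 0.05 and Plagl1 from a mean of 1818 to 233. Which parental copy the reads came from was not analysed here.

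The Dlk1 to Dio3 interval (chr12:109452823-110281097, mm10) held a block of rises, and it was chosen for description after its values were seen. Of its 60 tested genes 59 rose and 1, Dio3, fell. The block comprises the maternally expressed long RNA Meg3, 36 microRNA hairpins, 21 small nucleolar RNAs and the protein gene Dlk1. Meg3 went from 2027, 1817, 2317 and 1558 to 13216, 15694, 14266 and 11699, by 2.84 ± 0.26 (limma adjusted p = 1.94e-08). The 36 hairpins rose by 1.76 to 3.83 with a median of 2.80, and the 21 small nucleolar RNAs by 2.36 to 3.52 with a median of 2.86, close to Meg3 itself. Dlk1, a NOTCH-like surface protein expressed from the paternal copy, rose from 3.37, 3.95, 4.21 and 4.53 to 72.1, 47.5, 62.6 and 42.5, and Dio3, the deiodinase at the far end, fell from 273, 207, 242 and 266 to 26.9, 15.8, 14.9 and 24.7. Reads over a hairpin in a total RNA library come from precursors and host transcripts, and mature microRNAs were not measured. For the 36 hairpins 66 mature microRNAs were matched in RefSeq, with 60 different seeds (bases 2 to 8, which pair with targets), so those matched share few seeds. Examples of arms that share a seed, given in capitals, are those of Mir379 (chr12:109709102-109709123 and chr12:109709065-109709085) with Mir411 (chr12:109710225-109710246) and Mir1193 (chr12:109715716-109715735), all on the plus strand.
miR-379-3p: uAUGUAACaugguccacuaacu
miR-411-3p: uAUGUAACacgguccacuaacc
miR-379-5p: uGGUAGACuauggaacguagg
miR-1193-5p: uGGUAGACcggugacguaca
Mir379 rose by 3.58 ± 0.49, Mir411 by 3.55 ± 0.39 and Mir1193 by 3.70 ± 0.44.

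**Figure D4:**
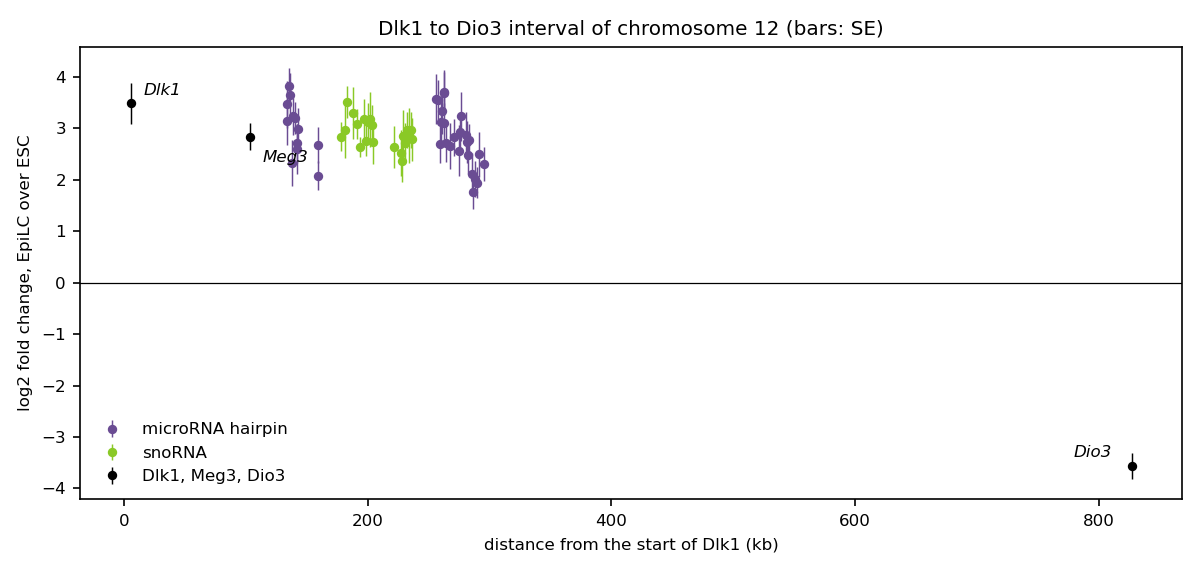
Log2 fold change (EpiLC over ESC, bars give the SE) of the 60 tested genes of the Dlk1 to Dio3 interval against the distance of each gene's midpoint from the start of Dlk1 in kb. The 36 hairpins and 21 small nucleolar RNAs lie between 1.76 and 3.83, at the height of Meg3 at 2.84, and Dio3 lies at -3.56.

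The miR-290 cluster on chromosome 7 (chr7:3218626-3220841, plus strand), which encodes the main microRNAs of mouse ESCs, went the other way, and it too was chosen after its values were seen. All 7 tested hairpins fell, by 2.31 to 2.96. Mir290a was at 1028, 1078, 935 and 907 in ESCs and 174.3, 152.3, 132.1 and 82.95 in EpiLCs (limma adjusted p = 1.72e-11), and AU018091, the host transcript, fell from 6311, 5889, 6905 and 7026 to 699, 729.8, 357 and 298, by 3.75 ± 0.20. In contrast to the chromosome 12 block, its arms share seeds. Arms were matched by hairpin name, and for Mir292 only miR-292a-5p was matched, so the counts may miss an arm. Of the 13 mature microRNAs matched, 5 carry AAGUGC at bases 2 to 7, out of 8 among the 1679 mature microRNAs of the table, and 3 of them have the same seed. They are given with the seed in capitals (chr7:3218674-3218697, chr7:3218968-3218989, chr7:3219529-3219550, chr7:3220691-3220712 and chr7:3220815-3220837).
miR-290a-3p: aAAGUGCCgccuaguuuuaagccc
miR-291a-3p: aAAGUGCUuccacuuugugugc
miR-291b-3p: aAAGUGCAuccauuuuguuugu
miR-294-3p: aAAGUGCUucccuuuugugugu
miR-295-3p: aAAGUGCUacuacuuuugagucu
In this order, the log2 changes of their hairpins were -2.91 ± 0.16, -2.96 ± 0.23, -2.31 ± 0.13, -2.65 ± 0.22 and -2.63 ± 0.18. Outside the clusters 2 of 125 tested hairpins were higher and 5 lower (median -0.57). The 2 that rose were Mir363 and Mir18b, neighbors on the X chromosome, from 5.61, 7.91, 0 and 0 to 51.5, 26.7, 41.7 and 11.9 and from 6.74, 2.96, 3.15 and 2.26 to 54.7, 30.7, 40.7 and 29.6.

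Genes of later lineages were counted to see which other cells or states the EpiLC dishes could hold. Of 17 primitive streak and mesoderm genes 12 were tested, 8 rose and 3 fell (median 2.37), beside 24.9% higher and 22.9% lower over all genes. Summed normalized counts of the list were 861 to 1231 in ESCs and 4025 to 8910 in EpiLCs. Eomes, a T-box factor of the streak, rose from 244, 236, 206 and 185.5 to 1891, 1982, 2204 and 2831 (by 3.34 ± 0.15, limma adjusted p = 4.93e-13), and T, brachyury, from 185.2, 228, 75.7 and 87.1 to 452, 783, 884 and 2729 (by 2.89 ± 0.56, limma adjusted p = 1.71e-04). EpiLC replicate 4 stood far above the other EpiLC libraries in T. Lhx1 had no ESC read and an EpiLC mean of 8.72 ± 5.96, at least 10.8-fold higher, and did not pass with a pseudocount of 10. Gsc, Kdr and Gata4 fell by 2.74 ± 0.43, 3.32 ± 0.48 and 2.34 ± 0.34, and Mesp1, Wnt3a, Cer1, Msgn1 and Hand1 were not tested here.

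The small counts that follow stand beside 24.9% of all genes higher and 22.9% lower. Of 14 neural genes 9 were tested, 2 rose (Sox11, from a mean of 11.3 to 1165, and Nes, by 2.45 ± 0.13) and 2 fell (Tubb3, by 2.14 ± 0.17, and Ncam1), with summed counts of 8135 to 10773 in ESCs and 11325 to 18818 in EpiLCs. The neural plate markers Sox1 and Pax6 were low, with EpiLC means of 28.6 ± 10.4 and 26.4 ± 13.9, and were not called. Pax6 passed as higher with DESeq2 (1.16, DESeq2 adjusted p = 4.46e-04) and without EpiLC replicate 4 (1.28, limma adjusted p = 2.52e-04). Of 14 endoderm genes 8 were tested, 4 rose and 3 fell, and their sums overlapped (215 to 373 in ESCs, 257 to 321 in EpiLCs): Foxa2 rose to 75.1 ± 10.4 and Dab2 to 85.4 ± 16.5, and Hnf4a fell from 85.7 ± 31.2 to 2.57 ± 2.80. Of 12 trophoblast genes 5 were tested, 2 rose and 2 fell (sums of 1216 to 1688 in ESCs, 215 to 301 in EpiLCs), and Cdx2 was at 3.96, 3.96, 7.95 and 8.89 in EpiLCs. Most of the ESC sum came from a single member that fell, from a mean of 1257 to 83.3. Of 10 fibroblast genes 5 were tested, 1 rose and 1 fell (sums of 329 to 423 and 309 to 440.4). The fibroblast gene that rose, Acta2, smooth muscle actin, had no ESC read and EpiLC values of 35.6, 73.2, 28.8 and 98.8, at least 73.4-fold higher. Of 39 Hox genes 6 were tested and none rose. Of 17 genes of the 2-cell-like state 4 were tested, all of multigene families whose copies share reads, and all 4 rose (sums of 18.8 to 85.2 in ESCs and 214 to 363 in EpiLCs), Zscan4c from 3.37, 6.92, 15.8 and 6.79 to 69.7, 50.4, 83.5 and 50.4. Without EpiLC replicate 3, 2 of the 4 passed, and 3 did without ESC replicate 1 or 2 or EpiLC replicate 2. What part, if any, such cells have in the other results was not tested.

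The X chromosome had more falls than rises. Of its 706 tested genes 20.5% were higher and 31.7% lower, with a median of -0.22 beside 0.015 on autosomes. Any gene with no mus reads in a library was left out of the allelic medians, so the most silenced genes may be missing. Fractions of reads from the mus copy are given for 187 X-linked genes with a mean normalized count of at least 100 over the 8 libraries and a fraction between 0 and 1 in each. Their median per library was 0.438 to 0.456 in ESCs and 0.194 to 0.235 in EpiLCs, without overlap, and it was 0.498 to 0.506 and 0.493 to 0.503 for 238 genes of chromosome 13. The shift was present whether X-linked genes rose or fell. The median was 0.117 to 0.170 in EpiLCs for the 43 that rose, 0.218 to 0.265 for the 90 that fell and 0.159 to 0.223 for the 54 not called, each below its ESC range (0.375 to 0.407, 0.457 to 0.475 and 0.421 to 0.456). X-linked members of the lists include rises (Pim2, Sox3 and Dusp9, an ERK phosphatase, which rose by 2.06 ± 0.11) and falls (Nr0b1, the nuclear receptor DAX1, which fell by 2.93 ± 0.35, Cox7b, and Ebp, a sterol isomerase, which fell by 1.41 ± 0.08). The read numbers behind the fractions are unknown, and their spread within a group is given as the range over 4 libraries.

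The 4 EpiLC libraries did not lie equally far from ESCs in the naive genes. For the naive list EpiLC replicate 1 was the highest EpiLC library for 80% of the 20 genes and replicate 4 the lowest for 70%, while over all genes replicate 1 was highest for 26.4% and replicate 4 lowest for 23.4%. This order was not particular to the naive list. In the 18 general pluripotency genes EpiLC replicate 1 was highest for 72.2% and replicate 4 lowest for 66.7%. Replicate 1 was also highest for 76.8% of the 82 ribosomal protein genes, where replicate 3 was lowest for 76.8%. The median SD of the naive genes on the log2 scale was 0.434 in EpiLCs and 0.153 in ESCs. Tcl1 was at 167.9, 90.98, 53.7 and 21.7, Nr0b1 at 416, 263, 139.1 and 82.95 and Nr5a2 at 413, 340.2, 170.9 and 121.5 in EpiLC replicates 1 to 4. For the streak and mesoderm list the order was turned: replicate 4 was highest for 8 of the 12 genes and replicate 1 lowest for 9, while over all genes replicate 4 was highest for 33.7% and replicate 1 lowest for 31.2%. Wnt3 was at 944, 1126, 1399 and 1852 and Krt19, a keratin of simple epithelia, at 227, 361, 417 and 862. All naive genes except Gbx2 remained below every ESC library in each EpiLC library, including replicate 1.

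**Figure D5:**
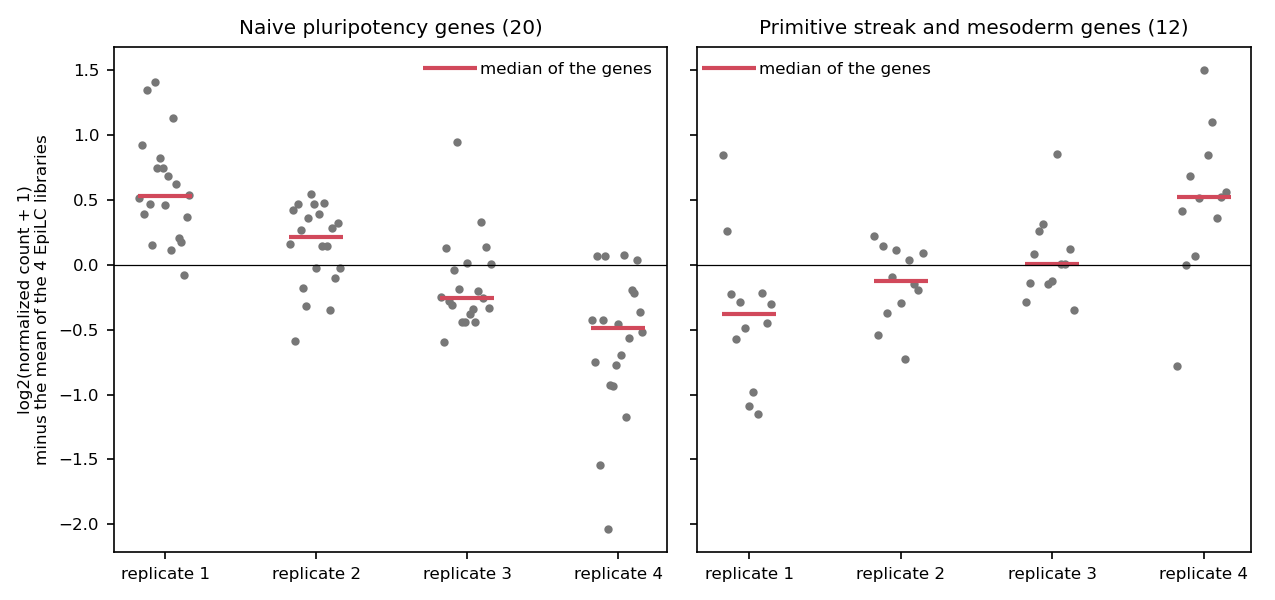
Log2(normalized count + 1) in each EpiLC library minus the mean of the 4 EpiLC libraries, for the 20 naive pluripotency genes (left) and the 12 primitive streak and mesoderm genes tested (right), with a bar at the median of the genes. Replicate 1 is highest for 80% of the naive genes and replicate 4 for 8 of the 12 streak and mesoderm genes.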

How the data were processed

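Per the labels and the study's methods, total RNA libraries were made with a stranded kit, reads were aligned with STAR to mm10 with strain variants masked, filtered with WASP for allelic bias and counted per gene with HTSeq 0.6.1. The authors deposited normalized counts, a signal in which gene counts had been divided by DESeq2 size factors, and, per gene and library, the fraction of allelic reads from the mus copy. Counts were recovered from the deposited normalized values, which were whole multiples of a constant in each library (100.0% within 0.01 reads).

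Groups were taken from the labels. Genes with a mean above 10 over 16 libraries were fitted with limma 3.58.1 (R 4.3.3, trend) on log2(normalized count + 1) with group as the only term. All 16 libraries shared the spread, tests were two-sided, and a gene was called at a Benjamini-Hochberg adjusted p below 0.001. Because the table holds normalized values, limma took the place of the study's DESeq2 test. On simulated counts limma recovered 86.5% of 2-fold and 99.1% of 4-fold changes (89 and 111 genes changed). The simulation gave every gene the same dispersion and changed far fewer genes than were called here, so recovery in these data may differ. Alternatives were edgeR 4.0.16 and DESeq2 1.42.0 on recovered counts, other pseudocounts, filters and scaling, a replicate block and leaving out each library. Precision rests on 4 libraries a group. Intervals for genes with 1 to 3 reads in a group are exact 95% Poisson ratio intervals, and 3 reads over the group is the limit that a count of 0 allows.

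The members and gene lists were chosen with earlier results of these data known. Named genes are the markers, the 10 largest rises and falls among called genes with a mean of at least 100 and no overlap, the list members, the genes nearest the limit and those said to be chosen after their values were seen. Gene names came from GENCODE vM21 (231 tested genes without one). Genes of multigene families may share reads. Promoters and mature microRNAs are RefSeq, GRCm38.p6, and 87.9% of matched promoters lie within 500 bases of the annotated start. The authors' 4 columns of another study were not used, and single-cell files were not used here. A few list members are counted and not reported here by name.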

Additional observations from a re-analysis of the deposited data

Results flagged for a closer look

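Of 448 groups of 4 libraries examined (224 named genes in 2 groups), 12 held a library far from the other 3. Chance flags about 1 in 20, which is more than were found, so the flagged libraries may be ordinary scatter. The number given is the gap to the nearest library divided by the range of the group. In EpiLCs, replicate 1 was high for Cox7b (0.888, normalized count 7249 beside 5758 to 5925) and Id3 (0.887, 160 beside 119.7 to 124.2), replicate 2 for Ddx4 (0.864, 614.1 beside 494.3 to 510.5) and replicate 4 for Hk2 (0.871, 4466 beside 3649 to 3754). EpiLC replicate 4 was low for Pga5 (0.908, 0.988 beside 2.97 to 3.17), Rif1 (0.846) and Tet1 (0.857, 9743 beside 12510 to 12970). In ESCs, replicate 2 was low for Nr0b1 (0.831, 1362 beside 1462 to 1482) and high for Slc25a31 (0.832, 33.6 beside 23.1 to 24.9). Car4, Has2 and Jakmip2 reached 1.000 in ESCs because their single ESC read fell in 1 library, replicate 2 for Car4 and Jakmip2 and replicate 4 for Has2.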

How the results depend on the processing

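The counts of 4059 higher and 3729 lower genes stayed within 1.5 times under every alternative run except a limit on size. Requiring an absolute log2 fold change above 1 left 2381 higher and 1820 lower. Leaving out 1 library gave 3662 to 3874 higher and 3410 to 3547 lower. Other settings gave 2935 to 4459 higher and 3071 to 4143 lower, the lowest with a filter at a mean of 100 (11702 genes tested) for the higher genes and with the replicate block for the lower genes. Quantile normalization gave 3993 higher and 4057 lower.

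With the replicate number as a block on the 8 libraries, 3412 genes were higher and 3071 lower. Deviations of same-numbered ESC and EpiLC libraries from their group means correlated at 0.041, 0.108, 0.11 and 0.056, so the numbers were not taken to pair the samples. Every library correlated best with its own number, a hint from the data and not the design.

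Of 224 named genes 212 were called, and 17 of these lost the call in some setting that kept the same limit on adjusted p, 9 of them when a library was left out. Grb10 lost it without any of ESC replicates 1, 3 and 4 or EpiLC replicates 1 to 3 (highest limma adjusted p 0.00237). With the replicate block 8 lost it: Brdt, Dnmt1, Fgfr2, Fos, Itga5, Lif, Rif1 and T (limma adjusted p 0.0013 for T to 0.00776 for Brdt), and Dazl gained it (0.000676). Rif1 reached 0.0276 with quantile normalization. Pou5f1 moved to 0.00 with quantile normalization, Tcf15 ran from -0.54 without EpiLC replicate 1 to 0.06 without replicate 4, and Cdx2 moved to -0.46 with edgeR, -0.45 with DESeq2, -0.43 with quantile normalization, -0.08 with a pseudocount of 10 and ran from -0.60 without ESC replicate 2 to 0.81 without ESC replicate 3. None of these 3 genes was called in the main comparison, and the cause was not tested. Genes with few reads, and the sharing of 2 clones among 4 libraries, limit what these p-values show.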

Other observations

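The ESC and EpiLC libraries could be split into replicates 1 and 3 against 2 and 4 by 17 genes in both groups alike, with a gap of more than 0.5 on the log2 scale. The split of 1 and 2 against 3 and 4 gave 20 genes and that of 1 and 4 against 2 and 3 gave 4. The genes named here were chosen after their values were seen. Proscos was at 165, 0.99, 178 and 4.52 in ESC replicates 1 to 4 and at 242, 2.97, 221 and 1.97 in EpiLCs, so replicates 2 and 4 held almost none. Gsk3a, a kinase that restrains WNT signaling, was at 1785, 1086, 1981 and 1231 in ESCs and at 2058, 1213, 2160 and 1278 in EpiLCs. Ndc80, a kinetochore subunit, was at 2375, 1263, 2144 and 1208 in ESCs and at 1971, 1135, 1807 and 1033 in EpiLCs. Hibadh, an enzyme of valine breakdown, was higher in replicates 2 and 4, at 1395, 2423, 1414 and 2234 in ESCs and at 600, 1083, 585 and 997 in EpiLCs. In PGCLCs these 4 genes separated the same replicate numbers in both the XGFP+ and the XGFP- libraries. The study's methods mention clones and the labels do not name them.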
